A study of Mus musculus with 4 samples.

Results

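The tissue kallikrein cluster was followed in dendritic cells (DC) of the mouse spleen through 10 genes, Klk1, Klk1b1, Klk1b5, Klk1b9, Klk1b11, Klk1b21, Klk1b22, Klk1b24, Klk1b26 and Klk1b27. All probe sets that the platform's annotation assigns to any of these symbols were taken, which gave 12 of the 22626 probe sets that are not array controls. The 10 genes are among 13319 gene symbols on the array. Of these, 10 carried 1 member symbol only. The other 2 were shared, 1 by Klk1b9 and Klk1b22 and 1 by Klk1b26 and Egfbp2, and are given apart. The genes were chosen with their TCDD and DMSO values in view, so their values are a description and no test is given for them.

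Female C57BL/6 mice aged 8 to 12 weeks, 3 per group, received an intraperitoneal injection of TCDD at 10 µg/kg or of the solvent DMSO, both in corn oil. TCDD, a dioxin, is a strong agonist of the aryl hydrocarbon receptor (AhR), a ligand-activated transcription factor. After 24 h the spleens were pooled, and DC were enriched by density and sorted with magnetic beads to a stated purity above 90%. Affymetrix arrays were run on amplified RNA, with 2 arrays numbered as biological replicates in each group. The labels do not say if each array came from a separate pool of 3 mice.

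Tissue kallikreins are secreted serine proteases with trypsin-like or chymotrypsin-like cleavage. Klk1, the true tissue kallikrein, cuts kininogen to release kinins, peptides that widen vessels and make them leaky through the bradykinin receptors. The Klk1b genes arose in rodents by duplication of this gene and are best known from the mouse submandibular gland, where several of their products process or bind growth factors. They are not used as markers of DC.

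The members lie next to each other on chromosome 7, in the order Klk1b1, Klk1b9, Klk1b11, Klk1b26, Klk1b27, Klk1b21, Klk1b22, Klk1b24, Klk1b5 and Klk1 by annotated transcription start, with Klk1b16, Klk1b3 and Klk1b4 between some of them. Their promoters show how alike the copies are. Windows of 300 bases from RefSeq (GRCm38.p6), 250 before the annotated start and 50 from it, were found for 10 of 10 members. Over the 45 pairs the aligned bases were 79.7% to 97.7% identical, with a median of 85.2%. The closest pair was Klk1b21 and Klk1b24 at 97.7%, followed by Klk1b27 and Klk1b21 at 94.5%. The 9 pairs with Klk1 had a median of 81.2%.

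Below are the 150 bases before the annotated start of 5 members, all on the plus strand, 5′ to 3′. Klk1b5, Klk1b1 and Klk1b24 are shown because their values differed most clearly between the groups, Klk1b21 as the near copy of Klk1b24, and Klk1 as the founding gene. Capitals mark the TATA-like motif TTTAAA.
Klk1b5 (chr7:44216324-44216473): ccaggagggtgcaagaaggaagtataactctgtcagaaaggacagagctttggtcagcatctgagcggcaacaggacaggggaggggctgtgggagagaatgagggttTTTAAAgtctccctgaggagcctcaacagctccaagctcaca
Klk1b1 (chr7:43966601-43966750): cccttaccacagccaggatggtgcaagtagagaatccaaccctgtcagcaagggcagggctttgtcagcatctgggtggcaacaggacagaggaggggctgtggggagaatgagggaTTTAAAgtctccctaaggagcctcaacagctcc
Klk1b24 (chr7:44188086-44188235): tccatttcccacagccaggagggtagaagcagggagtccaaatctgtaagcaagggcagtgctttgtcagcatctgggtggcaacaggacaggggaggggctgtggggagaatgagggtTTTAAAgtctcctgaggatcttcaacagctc
Klk1b21 (chr7:44102142-44102291): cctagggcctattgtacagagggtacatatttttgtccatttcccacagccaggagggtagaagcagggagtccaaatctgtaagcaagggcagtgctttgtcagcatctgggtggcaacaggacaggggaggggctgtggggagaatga
Klk1 (chr7:44225210-44225359): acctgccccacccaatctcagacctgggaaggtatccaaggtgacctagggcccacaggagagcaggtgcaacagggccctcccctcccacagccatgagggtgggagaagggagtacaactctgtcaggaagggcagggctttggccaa

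The TATA-like motif TTTAAA, which reads the same on both strands, was in the promoter window of 9 of 10 members, against 13.2% of the 32851 promoter windows in the RefSeq table. The motif was also in 4 of 18 windows of other Klk genes, those of Klk1b8, Klk1b16, Klk1b3 and Klk1b4. It is thus not particular to the members among the Klk1b genes. In Klk1b5 its last base lay 37 bases before the start, in Klk1b11 and Klk1b22 35, in Klk1b1 and Klk1b9 28, in Klk1b24 26, in Klk1b26 21 and in Klk1b27 12. In Klk1b21 the annotated start lies further upstream in the same stretch, and the motif began 4 bases past it. Klk1 had no match in its window, which ends further upstream in the shared sequence than those of the other members. A run of 14 bases, agctccaagctcac, was shared by 8 of the 10 members and stood in 11 of all 32851 windows. The core that AhR binds with its partner ARNT, GCGTG on either strand, was in 0 of 10 member windows. It was in 1 of 18 windows of other Klk genes and in 32.4% of all windows. The androgen receptor hexamer TGTTCT on either strand was in 1 member window, that of Klk1b24. It was in 6 of 18 windows of other Klk genes and in 19% of all windows. These matches describe letters in a window and do not show binding.

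**Figure D1:**
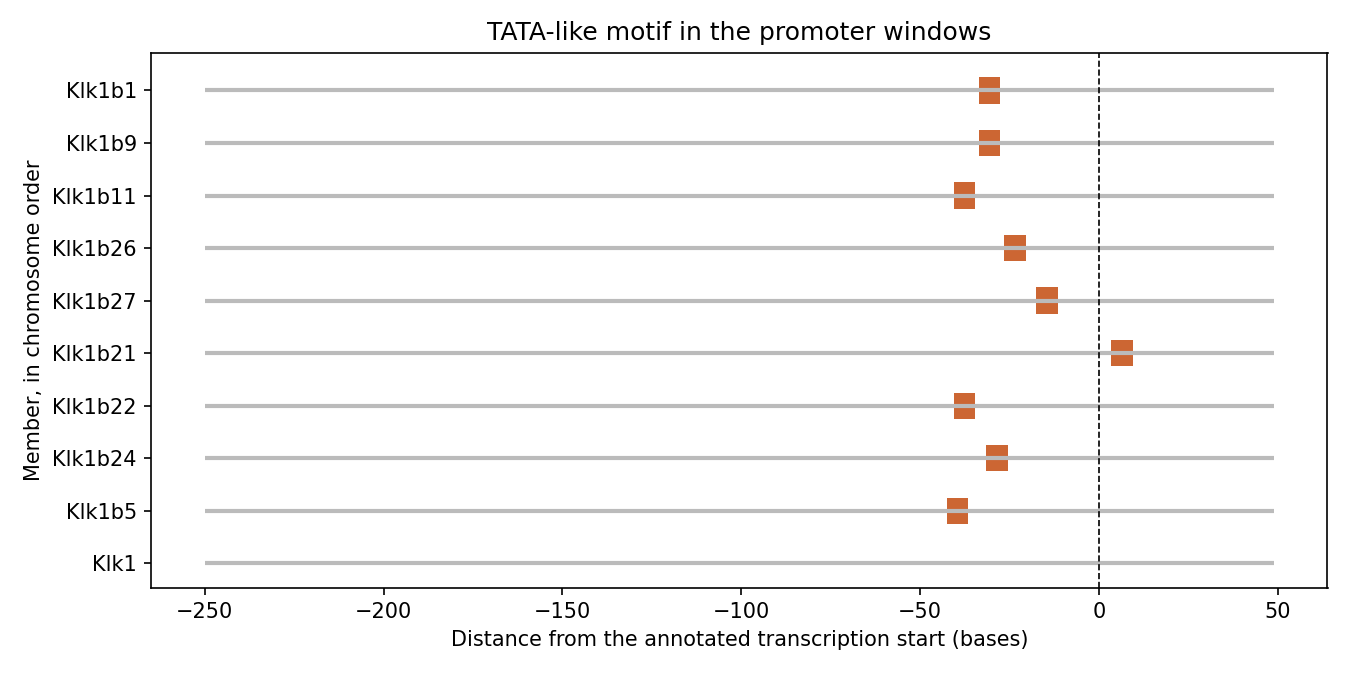
Position of the TATA-like motif (orange blocks) in the promoter windows of the 10 members, as distance in bases from the annotated transcription start (dashed line); grey lines are the windows of 300 bases. The motif sits before the start in 8 members, begins 4 bases past it in Klk1b21 and has no match in the window of Klk1.

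The values are RMA log2 values as deposited, in steps of 0.1, and 1 unit is a 2-fold difference. Array medians lay at 5.9 to 6.0. TCDD replicate 1 stood apart in 2 ways. The 3′ end of the Gapdh control exceeded its middle by 3.6, against 1.5 to 2.1 in the other 3 arrays, and for beta-actin by 4.0, against 1.9 to 2.1. Its neutrophil marker S100a8 was at 10.3, against 5.6 to 6.4. Most DC markers were high in all arrays, with the integrin gene Itgax, which encodes CD11c, at 9.1 to 10.1 and the invariant chain gene Cd74 at 10.9 to 13.2. Lower were Bst2 at 6.1 to 7.2 and Xcr1, a marker of cross-presenting DC, at 5.2 to 5.5. Over all 22626 probe sets limma called 0% at an adjusted p under 0.05, and the lowest adjusted p was 0.349. Unadjusted, 6.37% were higher in TCDD and 6.7% lower at p under 0.05.

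Klk1b5, a glandular kallikrein gene beside Klk1, had the largest difference of the cluster, and both of its probe sets showed it. Probe set 1449313_at read 4.3 and 4.6 under DMSO and 5.8 and 7.5 in TCDD. Probe set 1419010_x_at read 4.6 and 4.4 under DMSO and 5.4 and 7.4 in TCDD. In both, each TCDD array lay above each DMSO array, and TCDD replicate 2 lay furthest above. The differences of the means were 2.20 (moderated standard error, SE, 0.704, n = 2 arrays per group), or 4.59-fold, and 1.90 (SE 0.819), or 3.73-fold. The DMSO means of 4.45 and 4.5 lay under 5.525, the 40th percentile of mean levels over the array. Whether they stood above background was not tested, so the folds are between values as given. Set against the DMSO mean, TCDD replicate 1 alone differed by 1.35 and 0.90 and TCDD replicate 2 alone by 3.05 and 2.90. The 2 TCDD arrays thus differed from each other by 1.7 and 2.0, while the DMSO arrays differed by 0.3 and 0.2. Both probe sets were designed on the same transcript record, so they are 2 readings of 1 gene and not 2 genes.

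Klk1b1 and Klk1b24 differed by less, and their arrays lay closer together. Klk1b1, of the same glandular group, read 5.0 and 4.9 under DMSO and 5.7 and 5.9 under TCDD, a shift of 0.85 (SE 0.11), or 1.80-fold. Klk1b24, known from Leydig cells of the testis, read 5.3 in both DMSO arrays and 5.9 and 6.4 under TCDD, also a shift of 0.85 (SE 0.213). Both genes were higher in each TCDD array, by 0.75 and 0.95 for Klk1b1 and by 0.60 and 1.10 for Klk1b24 in replicates 1 and 2.

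Klk1b21, a further gene known from Leydig cells, whose promoter window is the near copy of that of Klk1b24, did not separate the groups. It read 7.7 and 7.6 under DMSO and 7.7 and 8.6 under TCDD, a shift of 0.50 (SE 0.373). Only TCDD replicate 2 was above the DMSO arrays, by 0.95 over their mean, and TCDD replicate 1 tied with DMSO replicate 1. Klk1b11, a further glandular kallikrein gene, read 4.9 and 4.5 under DMSO and 5.0 and 5.3 under TCDD, a shift of 0.45 (SE 0.213). Its groups did not overlap, but the nearest arrays of the groups were 1 step of 0.1 apart.

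Klk1 itself was measured by 3 probe sets, which did not give 1 answer. Probe set 1415837_at read 6.1 and 5.0 under DMSO and 7.3 and 5.8 under TCDD, a shift of 1.0 (SE 0.758). Probe set 1448107_x_at, designed on the same transcript record, read 6.3 and 5.1 under DMSO and 7.3 and 5.7 under TCDD, a shift of 0.80 (SE 0.815). In both, the groups overlapped, since TCDD replicate 2 lay below DMSO replicate 1. Replicate 1 was above replicate 2 within each group, by 1.1 and 1.2 under DMSO and 1.5 and 1.6 in TCDD. Against the DMSO mean, TCDD replicate 2 alone differed by 0.25 and 0.00 and TCDD replicate 1 alone by 1.75 and 1.60. Taken by replicate number, TCDD minus DMSO was 1.2 and 1.0 in replicate 1 and 0.8 and 0.6 in replicate 2. The labels do not say if the numbers pair arrays, so how far the difference rested on 1 array is not known. The other probe set, 1455977_x_at, designed on another record, read 6.3 in both DMSO arrays and 6.7 and 6.4 under TCDD, a shift of 0.25 (SE 0.137) with no overlap.

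Klk1b27, the remaining gene with a probe set of its own and also known from Leydig cells, read 5.8 and 5.6 under DMSO and 6.5 and 5.1 under TCDD, a shift of 0.10 (SE 0.578). The TCDD arrays lay on opposite sides of the DMSO arrays. Without TCDD replicate 1 its difference was -0.60.

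The shared probe sets cover the genes of the epidermal growth factor (EGF) binding proteins, kallikreins found in complex with EGF or able to process its precursor. The probe set of Klk1b9 and Klk1b22 read 6.0 and 5.6 under DMSO and 6.4 and 5.6 under TCDD, a shift of 0.20 (SE 0.369) with overlapping groups, and of -0.20 without TCDD replicate 1. The probe set of Klk1b26 and Egfbp2 read 5.2 in both DMSO arrays and 5.5 and 5.6 under TCDD, a shift of 0.35 (SE 0.0745) without overlap. Egfbp2 is listed as an older name of Klk1b26 in the RefSeq table. A further probe set annotated to Egfbp2 alone, and therefore not a member by the rule, read 5.1 and 5.2 under DMSO and 5.6 and 5.7 under TCDD, a shift of 0.50.

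**Figure D2:**
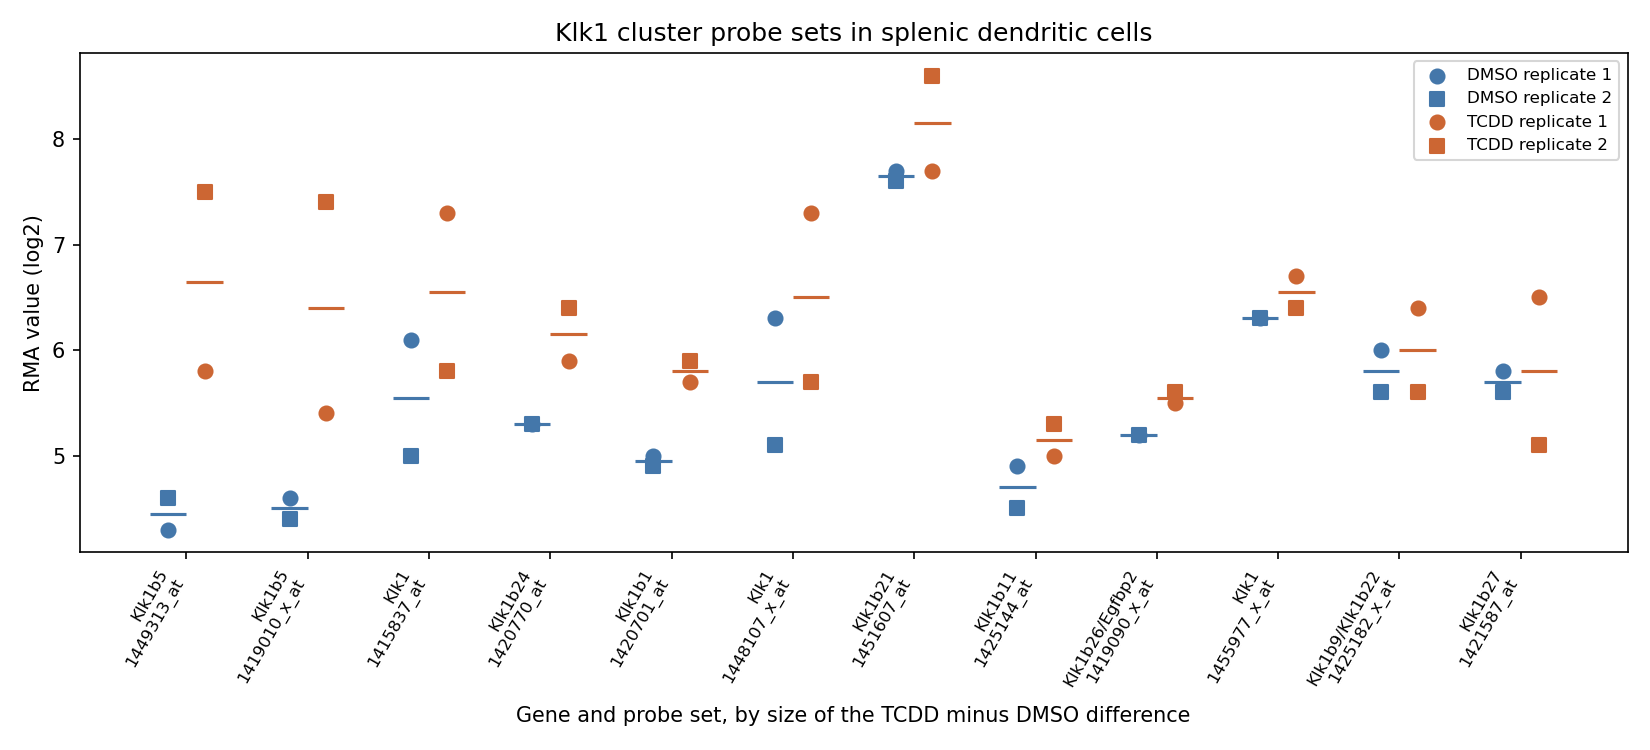
RMA value (log2) of each of the 12 member probe sets in each array, ordered by the TCDD minus DMSO difference; circles are replicate 1, squares replicate 2, blue DMSO, orange TCDD, and short lines the group means. Both Klk1b5 probe sets are above DMSO in each TCDD array and highest in TCDD replicate 2, at 7.5 and 7.4, and 2 of the 3 Klk1 probe sets are highest in TCDD replicate 1, at 7.3 in each.

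Of the 12 probe sets 12 had a mean difference above 0, from 0.10 to 2.20 with a median of 0.65, against a median of 0.00 over all probe sets. The median was 0.83 over the 10 with 1 symbol, 6 of them without overlap, and 0.28 over the 2 shared ones, 1 of them without overlap. Both TCDD arrays lay above both DMSO arrays in 7 of them, namely both of Klk1b5, 1 of Klk1, and those of Klk1b1, Klk1b11, Klk1b24 and Klk1b26 with Egfbp2, and in 0 below. Over all probe sets these shares were 19% above and 18.4% below. Over the 13931 probe sets within the range of mean levels of the members, 4.93 to 7.9, 22% lay above. Of the 12, 2 were at least 2-fold higher with separate groups, both of Klk1b5, against 0.398% of all probe sets. As the members were chosen on this contrast, nothing is read from these shares.

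The members split by the array in which they were highest. TCDD replicate 2 was the highest of the 4 arrays in 7 probe sets, those of Klk1b5, Klk1b1, Klk1b11, Klk1b21, Klk1b24 and Klk1b26 with Egfbp2. TCDD replicate 1 was the highest in the other 5, the 3 of Klk1 and those of Klk1b27 and of Klk1b9 with Klk1b22. Over all 22626 probe sets TCDD replicate 2 was the highest in 3771 and TCDD replicate 1 in 6071. The median of the 12 was 0.68 above the DMSO mean in TCDD replicate 1 and 0.50 in TCDD replicate 2, so it was above 0 in each TCDD array. With an array left out it was lowest without DMSO replicate 2, at 0.40. Without TCDD replicate 1 the count above the DMSO arrays was 8 of 12, and without TCDD replicate 2 it was 11 of 12. A group of 1 array separates more readily, and the share over all probe sets was not computed with an array left out. These 2 counts are therefore not compared with the 7 of 12.

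Position in the cluster did not order the differences. Klk1b5 at 2.20 and 1.90 and its neighbour Klk1 at 1.0, 0.80 and 0.25 lie at the same end, but Klk1b1 at 0.85 lies at the opposite end of the members. Klk1b16, which lies beside Klk1b24, read 4.3 in both DMSO arrays and 4.5 and 4.3 in TCDD, and Klk1b8, next to Klk1b1 on the other side, read 5.0 in both and 5.3 and 5.1.

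**Figure D3:**
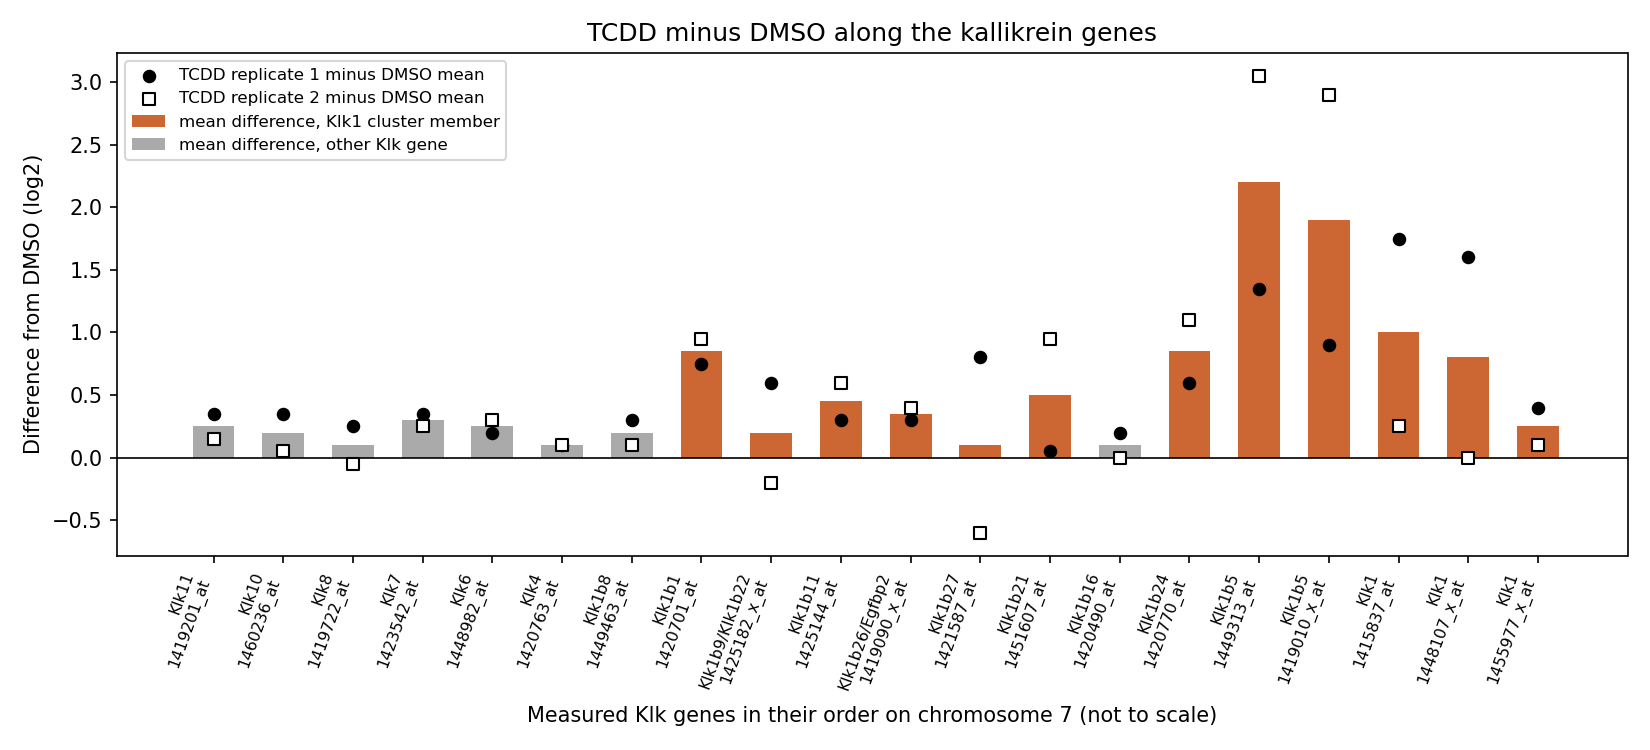
TCDD minus DMSO (log2) for every measured Klk gene in its order on chromosome 7, not to scale; bars are mean differences (orange members, grey other Klk genes), and circles and squares are TCDD replicates 1 and 2, each minus the DMSO mean. The tall bars belong to Klk1b5, at 2.20 and 1.90, and the grey bars reach at most 0.30.

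The other Klk genes gave small differences. Their list holds proteases mostly of skin, brain and other epithelia, and also the Klk1b genes that are not members, Klk1b3, Klk1b4, Klk1b8 and Klk1b16. Of 16 listed, 8 were measured with a probe set of their own, and 2 of these had a mean level of 5.525 or more; 8 of the 12 member probe sets did. Their differences ran from 0.10 to 0.30 with a median of 0.20, and 4 of 8 were higher without overlap and 0 lower, against 19% and 18.4% of all probe sets. Klk7, a protease of skin shedding, read 6.2 and 6.3 under DMSO and 6.6 and 6.5 under TCDD, a shift of 0.30. Klk6 and Klk11 differed by 0.25 each, and the measured Klk1b genes of this list, Klk1b8 and Klk1b16, by 0.20 and 0.10. Limma called 0 of the 8 at an adjusted p under 0.05. At an unadjusted p under 0.05, 1 was higher, against 6.37% of all probe sets.

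The plasma side of the system makes kinins from the same substrate with another protease. F12, coagulation factor XII, which activates plasma kallikrein, read 6.0 in both DMSO arrays and 6.5 and 7.1 under TCDD, a shift of 0.80 (SE 0.252). It lay clear of DMSO in both TCDD arrays. The gene of plasma kallikrein itself, Klkb1, differed by 0.15 and that of the substrate, Kng1, by 0.25, both with overlap. Of the kinin receptors, the inducible Bdkrb1 read 5.0 in both DMSO arrays and 5.2 and 5.0 in TCDD, and the constitutive Bdkrb2 differed by 0.20. Limma called 0 of these 6 measured genes (F11, a coagulation protease, among them). At an unadjusted p under 0.05, 1 was higher, against 6.37% of all probe sets.

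Peptidases that destroy kinins differed in both directions. Ace, the angiotensin-converting enzyme, which also cleaves bradykinin, read 7.6 and 7.5 under DMSO and 8.0 and 8.2 under TCDD, a shift of 0.55 (SE 0.11). Xpnpep2, the membrane aminopeptidase P, read 7.2 in both DMSO arrays and 7.7 and 8.0 under TCDD, a shift of 0.65 (SE 0.137). Its cytosolic relative Xpnpep1 read 7.9 and 7.7 under DMSO and 7.2 and 6.8 under TCDD, a shift of -0.80 (SE 0.192). In these 3 genes the groups did not overlap. Of the 10 measured peptidases 3 (30%) were higher without overlap and 1 lower, against 19% and 18.4% of all probe sets. Limma called 0, and 2 higher and 1 lower had an unadjusted p under 0.05, against 6.37% and 6.7% of all probe sets. The adjusted p was 0.349 for Ace and Xpnpep2 and 0.379 for Xpnpep1.

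Inhibitors and growth factor partners, read from the brightest probe set of each gene, had medians at or under 0.20. Among 8 measured inhibitors the serpin Serpina3n differed by 0.45 and the broad-range protease trap Pzp by 0.40, each without overlap, A2m, of the same trap family, by 0.15, and the median was 0.10. Among 5 growth factor partners the nerve growth factor receptor Ngfr differed by 0.35, the growth factor carrier Igfbp3 by 0.30 and Egf by 0.20, with a median of 0.20. Egfr, the receptor of EGF, differed by 0.10 in its brightest probe set and by -0.10 to 0.75 over its 5 probe sets. The probe set at 0.75 read 5.4 and 5.2 under DMSO and 5.7 and 6.4 under TCDD. Another probe set of Ngfr differed by 0.55 without overlap. Of the 3 measured receptors cut by trypsin-like proteases, F2r is the thrombin receptor. Its brightest probe set read 4.9 and 4.8 under DMSO and 6.2 and 4.8 in TCDD, so the difference of 0.65 there came from TCDD replicate 1. Its other probe set read 4.0 in both DMSO arrays and 4.1 and 4.2 in TCDD, a difference of 0.15 without overlap. F2rl2 differed by 0.25 and F2rl3 by 0.10. Limma called 0 of these 16 genes. At an unadjusted p under 0.05, 1, a receptor, was higher, against 6.37% of all probe sets. Over the 7 lists together, 14 of 40 genes (35%) were higher without overlap and 1 was lower, against 19% and 18.4% of all probe sets, and the median was 0.18.

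Genes around the cluster that are not kallikreins served as a local comparison. Of the 10 nearest protein-coding genes on each side 6 in all were measured, with a median difference of -0.05. Siglece, an inhibitory receptor of myeloid cells, differed by 0.55 without overlap, Ctu1, a tRNA-modifying enzyme, by -0.25 and the myeloid receptor Cd33 by 0.05. Limma called 0 of the 6, and 0 had an unadjusted p under 0.05, against 6.37% higher and 6.7% lower over all probe sets.

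**Figure D4:**
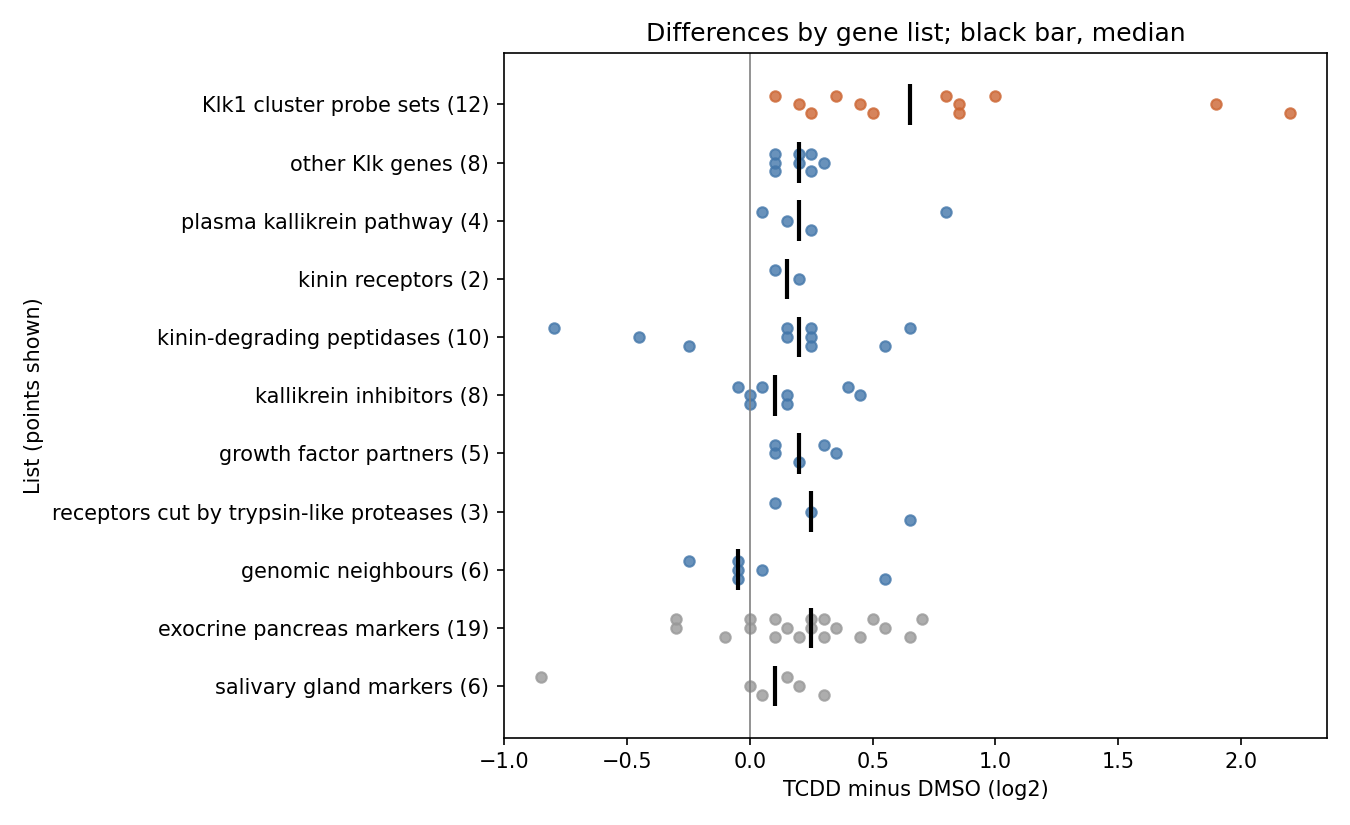
TCDD minus DMSO (log2) for the 12 member probe sets (orange), for the brightest probe set of each gene of the kallikrein, kinin and neighbour lists (blue) and for gland markers (grey); black bars are medians and numbers in brackets count the points. The members have a median of 0.65, and the medians of the other lists lie between -0.05 and 0.25.

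Kallikreins are abundant in the pancreas, which touches the spleen, and in salivary glands, so markers of both are set beside the members. Of 25 exocrine pancreas markers 19 were measured, and 11 of these were higher in TCDD without overlap (57.9%) and 1 lower, against 19% and 18.4% of all probe sets. Their median difference was 0.25, and their median level 5.8 and 5.9 in the DMSO arrays and 6.0 and 6.1 in the TCDD arrays. Limma called 0, with 5 of 19 higher at an unadjusted p under 0.05, against 6.37% of all probe sets. The highest differences were 0.70 for the chymotrypsin-like gene Ctrl, 0.65 for the carboxypeptidase gene Cpb1 and 0.55 for the lipase gene Cel. The elastase gene Cela1 and Gp2, a membrane protein of secretory granules, differed by -0.30 each, Gp2 without overlap, the colipase gene Clps by -0.10, and the protease genes Cela3b and Ctrb1 by 0.00. The trypsinogen gene Prss2 read 7.9 in both DMSO arrays and 8.2 in both TCDD arrays, and Pnliprp1, a pancreatic lipase relative, 4.2 to 4.7 over all arrays. Of 6 measured salivary markers 2 were higher without overlap, with list medians of 5.1 and 5.05 under DMSO and 5.25 and 5.15 in TCDD, and Amy1, salivary amylase, was at 4.0 to 4.1 in all arrays. Neutrophil markers had list medians of 6.4 and 5.9 under DMSO and 6.8 and 6.3 in TCDD. Of 11 measured, 4 were higher without overlap and 1 lower, against 19% and 18.4% of all probe sets. Camp, the largest of these 4, read 5.6 and 5.1 under DMSO and 6.9 and 6.5 under TCDD. TCDD replicate 1 was the highest array in 9 of the 11 neutrophil markers. It was also the highest in the 3 probe sets of Klk1 and in 6 of the 8 other Klk genes measured. Over the kallikrein and kinin lists together TCDD replicate 1 was the highest in 20 of 40 genes, and over all 22626 probe sets in 6071. DC markers had list medians of 9.4 and 9.2 under DMSO and 8.45 and 8.85 in TCDD, with 4 of 12 lower without overlap and 0 higher. Macrophage and monocyte markers had a median difference of -0.80, with 5 of 11 lower without overlap and 0 higher, among them the iron exporter gene Slc40a1 at -1.15 and the heme oxygenase gene Hmox1 at -1.10. B cell markers had a median of -0.40 over 5 genes, with 3 lower without overlap and 1, Cd79a at 0.45, higher. Plasma cell markers had a median of -0.40 over 4. Markers of T and NK cells had a median of 0.00 over 7. Erythroid and megakaryocyte markers had a median of 0.35 over 6, with 3 higher without overlap. For all these marker counts, the salivary ones included, the shares over all probe sets were 19% higher and 18.4% lower without overlap. The part of these cells in the kallikrein values was not tested, and in pooled sorted cells fewer cells of a type and less RNA per cell cannot be told apart.

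The genes nearest in pattern to Klk1b5 were sought among 12816 probe sets with 1 symbol and a mean level within the range of the members. Likeness was the Euclidean distance, over the 4 arrays, between values set against the DMSO mean. The 5 nearest to 1449313_at were Lce1d, a cornified envelope gene, at a distance of 0.173, Top3b, a topoisomerase gene, at 0.387, the RNA-editing gene Adarb1 at 0.529, Coro1c, an actin-binding coronin gene, at 0.575 and Vat1, a vesicle membrane gene, at 0.686. The other Klk1b5 probe set stood at 0.592, and the remaining members at 2.10 for Klk1b24 to 3.71 for Klk1b27. Lce1d read 4.6 and 5.0 under DMSO and 6.0 and 7.9 in TCDD. Of these 5 genes all but Lce1d had other probe sets, 7 in total, with differences from -0.35 to 0.25. The 2 probe sets of Klk1b5, designed on the same transcript record, differed by 2.20 and 1.90. The 5 genes were picked by 1 probe set each, and Klk1b5 was chosen on this contrast. Nothing is therefore read from their other probe sets.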

How the data were processed

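Per the submitters' processing notes the authors computed RMA values, which are on the log2 scale. RMA as a method corrects for background, quantile normalizes probes between arrays and summarizes them per probe set. The values as deposited did not share 1 distribution, with highest values of 14.1 to 14.5 over the arrays. A further quantile normalization took the probe sets at least 2-fold lower without overlap from 531 to 246. Whether the arrays had been normalized together was not tested. The sources used here do not name the software. Of 22690 probe sets 64 controls were left out of the tests, and names come from the platform's annotation, where 20380 of the other 22626 probe sets have 1 symbol, 691 several and 1555 none. TCDD was compared with DMSO by limma 3.58.1 under R 4.3.3 (two-sided moderated test by lmFit and eBayes, Benjamini-Hochberg over 22626 probe sets); SE is its moderated standard error. Simulated data were used to check the fit. An exact permutation test was not run, since 2 arrays against 2 allow no p below 0.33. The number of arrays limits the precision, and p-values measure the spread between these arrays.

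The members and all gene lists were chosen with earlier results of these data known. Each listed gene was read from its brightest probe set with 1 symbol, and up to 3 genes of each pathway list were named by size of difference, more where a role called for it; further genes and all markers quoted were chosen after their values were seen. Promoter windows were aligned with Biopython 1.88 (global, free end gaps), and identity is the share of equal bases among aligned ones. Probe sequences were not used here, so binding of 1 member's transcript to a paralogue's probes, above all in probe sets whose name ends in _x_at, was not assessed. Alternatives were quantile normalization, median centring, cyclic loess, removal of dim probe sets, a replicate block, a trended robust prior, a 1.5-fold threshold, a gene's median over its probe sets and leaving out each array.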

Additional observations from a re-analysis of the deposited data

How the results depend on the processing

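The median difference of the 12 Klk1 cluster probe sets was 0.65 as reported, 0.81 under quantile normalization, 0.60 under median centring, 0.74 under cyclic loess, 0.65 over the 8 that are not dim, and 0.40 (without DMSO replicate 2) to 0.75 with 1 array left out. All 12 differences stayed above 0 under the 3 scalings; with an array left out 9 to 12 did. Of 104 member differences recomputed, 2 had another sign, Klk1b27 at -0.60 and Klk1b9 with Klk1b22 at -0.20, both without TCDD replicate 1. These 2 fell to 0 without DMSO replicate 2, and Klk1 probe set 1448107_x_at fell to 0 without TCDD replicate 1. The 104 include the replicate block and the removal of dim probe sets, which cannot alter a difference. The count without overlap was 7 of 12, 6 under median centring and 8 under cyclic loess. It was 3 of 8 without dim probe sets, where fewer were counted. With an array left out it was 7 to 11 (without TCDD replicate 2). The share over all probe sets was computed only as reported, so nothing is read from the other counts. Limma called 0 probe sets, and 0 genes of the kallikrein and kinin lists, under every setting run for them. The replicate block cannot change the median, which stayed at 0.65, and it called 0. Its SE was 0.16 in place of 0.758 and 0.815 for the 2 wide Klk1 probe sets. Replicate 1 minus 2 correlated at -0.189 between the groups. The crossed block, added after the data were seen, called 0 probe sets. The labels do not say that the numbers pair arrays. Probe sets at least 2-fold higher without overlap numbered 90, 594 at 1.5-fold and up to 326 with an array left out; those lower numbered 531, 246 under quantile normalization, 291 under cyclic loess, 1894 at 1.5-fold and up to 942 with an array left out. The median of the receptors cut by trypsin-like proteases, 0.25 as reported, was -0.05 (without TCDD replicate 1) to 0.30 with an array left out and 0.44 under quantile normalization. That of the inhibitors, 0.10, was 0.03 (without TCDD replicate 1) to 0.25 (without TCDD replicate 2) and 0.28 without dim probe sets, and that of the peptidases, 0.20, was 0.075 (without DMSO replicate 2) to 0.30 (without DMSO replicate 1). That of the plasma kallikrein pathway went from 0.20 to 0.53 without dim probe sets.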
